A study of Mus musculus with 22 samples.

Results

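The nuclear-encoded subunits of the mitochondrial oxidative phosphorylation chain were followed while mouse epiblast stem cells (mEpiSCs), which are primed, were converted towards a naive state. Members were taken by gene name: names beginning with Nduf, Uqcr, Cox4 to Cox8 or Atp5, together with Sdha, Sdhb, Sdhc and Sdhd, without the assembly factors named Ndufaf and without names marked as pseudogenes by "-ps". Of 34489 gene rows, 93 carried such a name and 91 reached the minimum of 22 counts summed over the 22 libraries; Cox8c and Ndufa11b did not. The 91 rows stand for 87 symbols, since Atp5a1, Atp5o, Ndufs3 and Uqcrc1 had 2 rows each. By complex, 39 rows belonged to complex I, 4 to complex II, 9 to complex III, 20 to complex IV and 19 to complex V. A filter on low counts kept 90 of the 91 rows, and the row it removed was Ndufs6b, which is annotated as a processed pseudogene, as are Ndufb4c and Cox6c2. Beyond this minimum, no measured value entered the rule.

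Oxidative phosphorylation passes electrons from NADH and succinate to oxygen through complexes I to IV, pumps protons across the inner mitochondrial membrane, and uses their return flow to make ATP in complex V, the ATP synthase. Complex I oxidizes NADH, complex II oxidizes succinate, complex III hands electrons from ubiquinol to cytochrome c and complex IV, cytochrome c oxidase, reduces oxygen. Most subunits are encoded in the nucleus and the rest in mitochondrial DNA. Naive pluripotent mouse cells are known to use both glycolysis and respiration, whereas primed cells depend largely on glycolysis.

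The data are bulk RNA-seq counts from 22 libraries, each from a different condition, of cells treated with activators of AMP-activated protein kinase (AMPK), an energy sensor of the cell. The line Oct4GIP carries a GFP and puromycin cassette under the Oct4 promoter and enhancer. The line 129/MSM, from a cross of male MSM/Ms with female 129X1/SvJ mice, was the other mEpiSC source. The study lists Oct4GIP as XX and 129/MSM as XY. The primed group held 1 library of each line, kept with FGF2 and Activin A. Per the study's methods, Oct4GIP was kept on fibronectin in serum-free medium, and 129/MSM on fibroblast feeders with serum replacement. Line, sex chromosomes, feeders and medium thus differ together between the primed libraries. The d8 and d16 groups held 4 Oct4GIP libraries each, grown on mouse embryonic fibroblast feeders for 8 or 16 days in Basal medium alone (Basal), with 2 kinase inhibitors and LIF (2iL), with the AMPK activator AICAR, or with AICAR+LIF. The d16+2-3p group held 4 Oct4GIP libraries of AICAR or AICAR+LIF cells moved at day 16 to 2iL for 2 or 3 passages. The d16+10p group held 7 libraries after 10 passages in 2iL: AICAR and AICAR+LIF in both lines, and A769662, A769662+LIF and metformin+LIF in Oct4GIP. The naive library was a Rex1-GFP embryonic stem cell line in 2iL, so naive state and line cannot be told apart there. Because no exact condition was repeated, the spread within a group includes activator, LIF, passage and line, and p-values measure only the spread between these samples.

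Library totals ran from 438771 counts in AICAR+LIF d8 to 5290163 in Basal d16, and counting error was widest in AICAR+LIF d8 and AICAR d8. Levels are given as CPM, the counts of a gene relative to its library's total after scaling by the trimmed mean of M values (TMM), and 3 counts were worth between 0.566 and 5.93 CPM depending on the library. The 8 naive markers examined summed to 2366 to 4130 CPM in the naive and passaged libraries and to 14.5 to 79.3 CPM in the primed, d8 and d16 libraries. The 4 general pluripotency markers summed to 133 to 316 CPM at d8 and d16 and to at least 681 CPM in every other library. Sox2, 1 of these 4, gave the largest part of each d8 and d16 sum. Sox2 was at 99.0 to 312 CPM there, above both primed libraries (58.9 and 52.4 CPM). The 8 primed markers summed to 836 and 2073 CPM in the Oct4GIP and 129/MSM primed libraries. They summed to 140 to 453 CPM at d8, 33.7 to 244 CPM at d16 and 913 to 1107 CPM at d16+2-3p. At d16+10p they summed to 360 to 1166 CPM, and in the naive library to 712 CPM. Pou5f1 (Oct4) was at 0.755 to 21.5 CPM at d16, so the d16 cultures carried little of the defining marker. The 10 fibroblast markers summed to 2925 to 3399 CPM at d8, 5626 to 49857 CPM at d16, 16.2 to 98.9 CPM at d16+2-3p, 14.9 to 24.9 CPM at d16+10p, and 63.3 and 597 CPM in the Oct4GIP and 129/MSM primed libraries. In bulk libraries, fewer cells of a type and less RNA per cell cannot be told apart.

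The summed level of the subunits was lowest at d8 and highest after passaging. All 91 rows together summed to 6548 ± 298 CPM (SD, n = 4) at d8, 8696 ± 978 CPM (n = 4) at d16, 8842 ± 1001 CPM (n = 2) in primed cells, 11378 ± 1010 CPM (n = 4) at d16+2-3p, 11316 ± 295 CPM (n = 7) at d16+10p and 11009 CPM in the naive library. Complex V gave the largest part of these sums in every library. Its sum was 2577 to 2864 CPM at d8, 2943 to 3764 CPM at d16, 3576 and 4079 CPM in primed cells, and 5124 to 6109 CPM over both passaged groups. The passaged groups did not overlap with the other cultures in the complex V sum, whereas for complex I the d16 libraries (1950 to 2497 CPM) and the d16+10p libraries (2299 to 2465 CPM) overlapped. As a share of all counts, the subunits took 0.637% in 2iL d8, the lowest, and 1.16% in AICAR+LIF d16+3p, the highest.

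**Figure D1:**
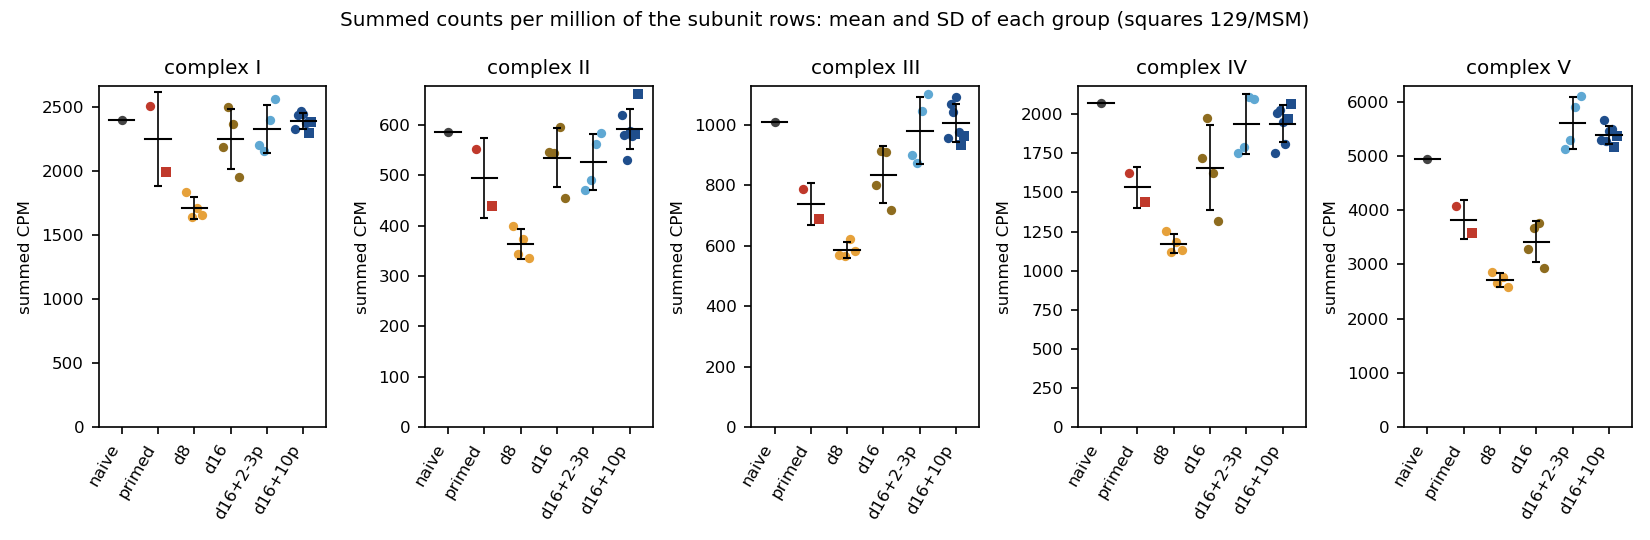
Summed CPM (vertical axis, from 0) of the subunit rows of each complex in each library, by group. Circles are Oct4GIP or Rex1-GFP libraries, squares 129/MSM libraries, horizontal bars group means and whiskers the SD where a group has more than 1 library. The 4 d8 libraries sit at the bottom in each panel, and the complex V sums of the 11 passaged libraries, 5124 to 6109 CPM, lie above those of all other cultures.

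**Figure D2:**
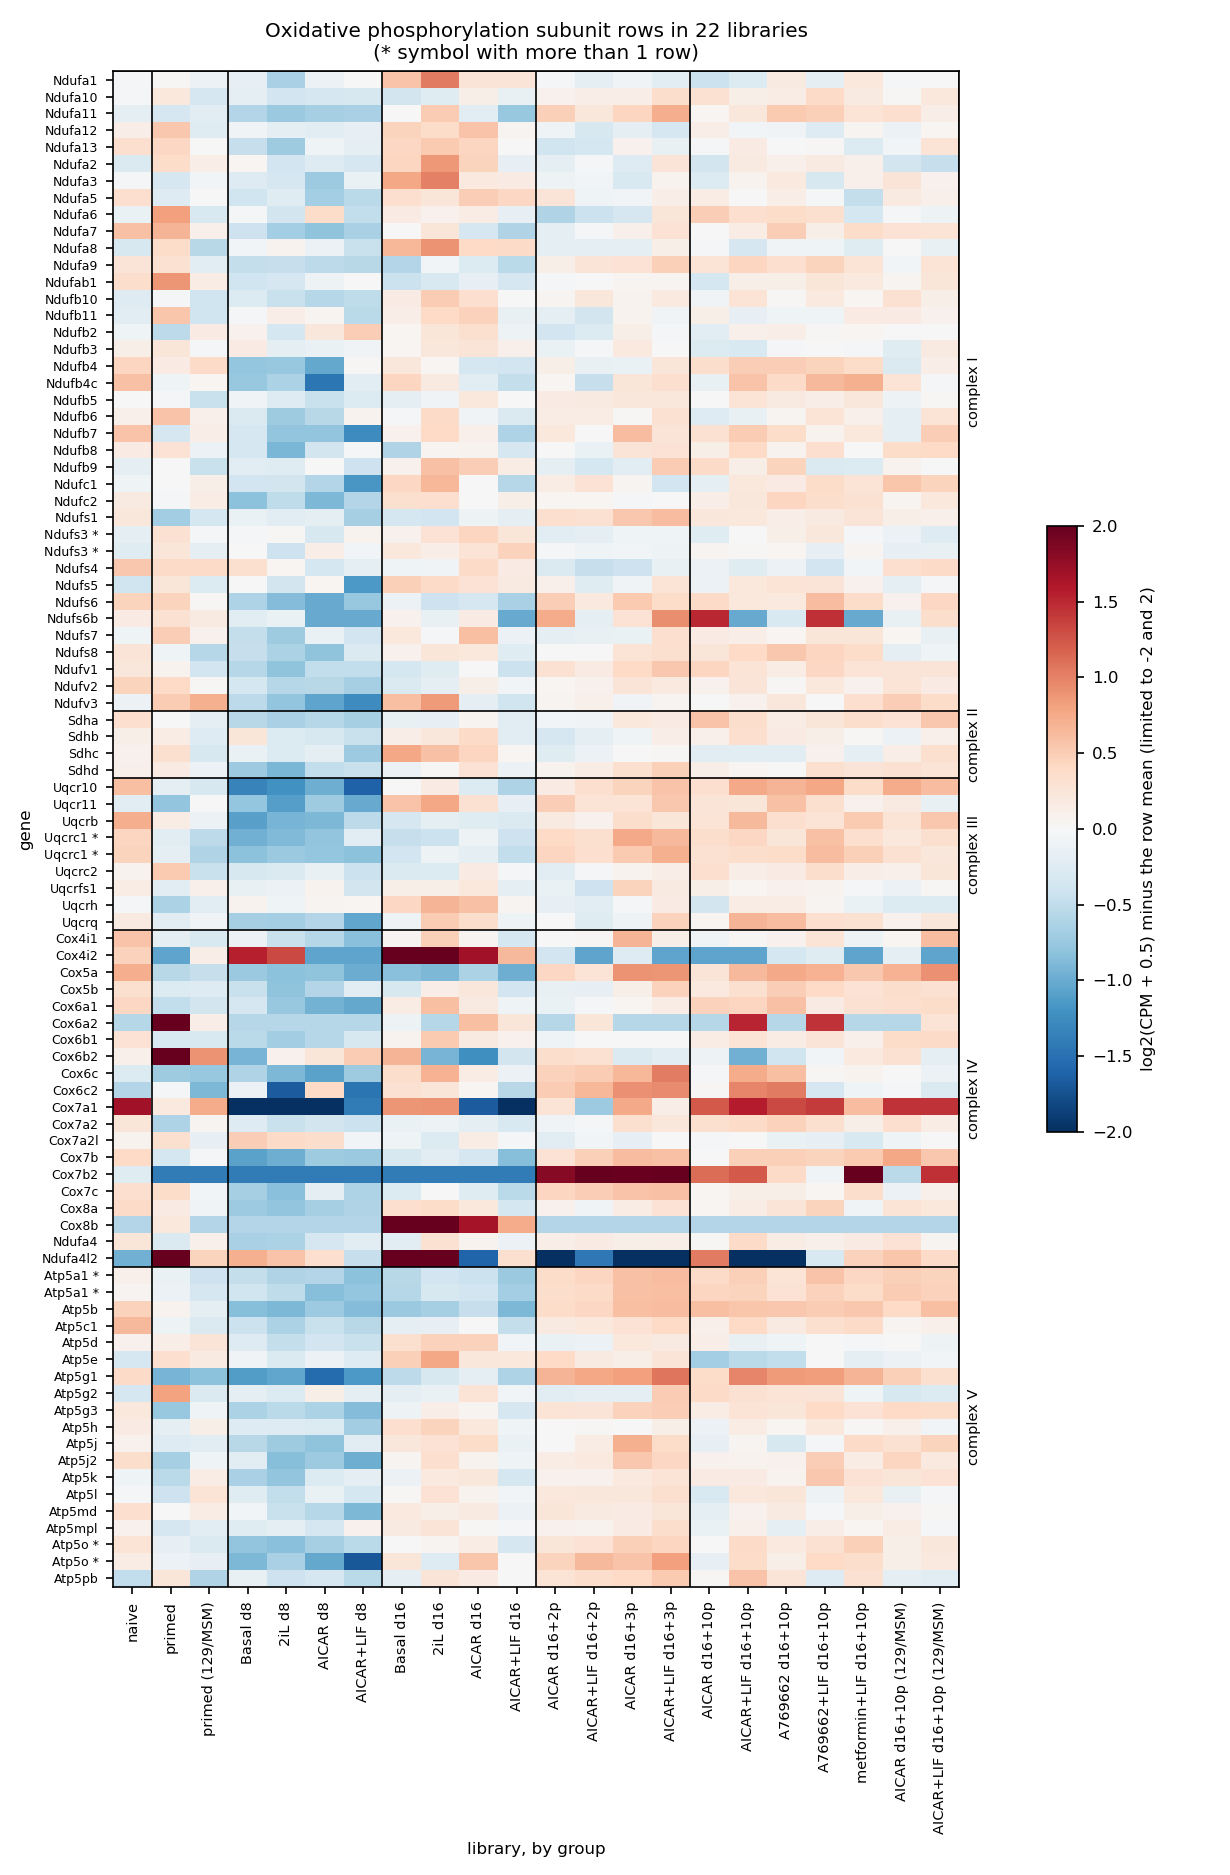
Level of 90 of the 91 subunit rows (vertical axis, ordered by complex) in each of the 22 libraries (horizontal axis, by group), as log2(CPM + 0.5) minus the row mean, with colours limited to -2 and 2. The d8 block is mostly blue over all complexes, the passaged blocks are mostly red for complex V, and the strongest single-row colours belong to complex IV, in Cox7b2, Cox8b, Cox4i2, Cox7a1, Cox6a2, Cox6b2 and Ndufa4l2.

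Subunit levels were then compared between d16+10p (n = 7) and primed cells (n = 2), the start and the end of the conversion. By edgeR's quasi-likelihood test with Benjamini-Hochberg adjustment over all genes, 24 of 90 subunit rows (22 symbols) were higher at d16+10p and 4 were lower, where 16.7% of all 18739 genes tested were called higher and 19.9% lower. The share of the subunits called was thus 26.7% higher and 4.44% lower. The median log2 fold change of the 90 rows was 0.22, against -0.01 over all genes. By complex, the calls were 3 higher and 1 lower of 38 in complex I, 1 higher of 4 in complex II, 4 higher of 9 in complex III, 8 higher and 2 lower of 20 in complex IV and 8 higher and 1 lower of 19 in complex V. Without the Oct4GIP primed library the count of calls was 18, all of them higher, and the d16+10p group was then set against 129/MSM primed cells alone. With either library left out the other carries the primed group, whose spread is then assumed to be that of the other groups. The median difference in log2(CPM + 0.5) between the d16+10p mean and the primed library of the same line, over the 90 rows, was 0.24 in Oct4GIP and 0.26 in 129/MSM. The lines did not move alike row by row: 48 rows were above 0 in both lines and 11 were below 0 in both. The complex I sum went from 2507 CPM in primed cells to 2331 to 2465 CPM at d16+10p in Oct4GIP. In 129/MSM it went from 1992 CPM to 2299 and 2383 CPM.

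**Figure D3:**
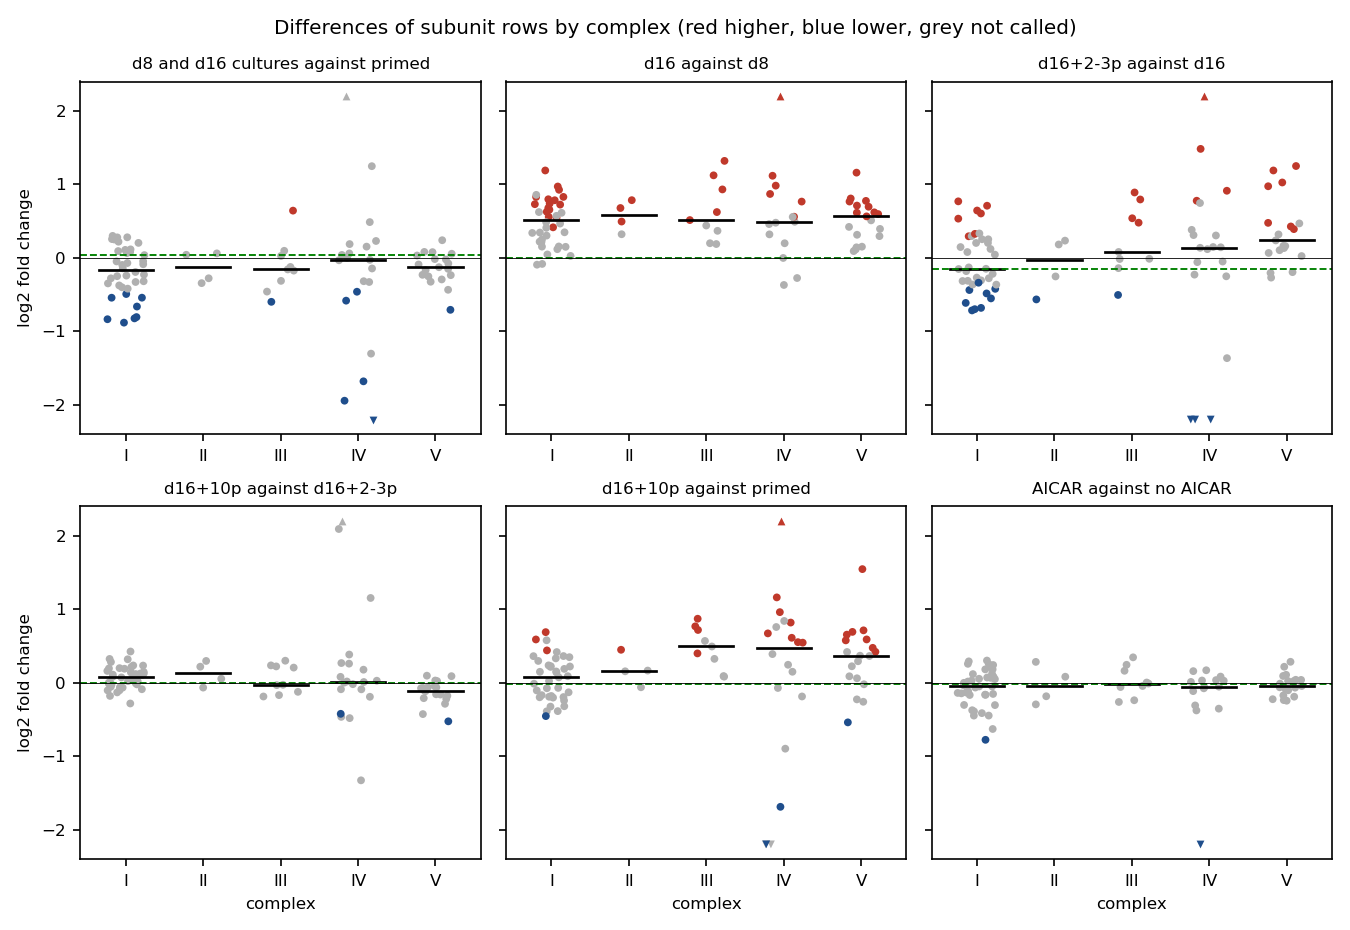
Log2 fold change (vertical axis) of each subunit row tested, by complex (horizontal axis), in 6 comparisons. Red points were called higher and blue points lower at an adjusted p under 0.05, grey points were not called, black bars are medians of a complex, the green dashed line is the median of all genes, and triangles mark values beyond 2.2 in either direction. Complexes III to V are shifted up at d16+10p against primed and all 5 complexes are shifted up at d16 against d8, while d16+10p against d16+2-3p and AICAR against no AICAR have medians near 0.

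In complex V the widest change among the well-counted subunits was in Atp5g1, 1 of 3 genes that encode the identical mature c subunit of the proton-driven ring. Atp5g1 (chr11:96068852-96075670, GRCm38) stood at 55.2 CPM in the Oct4GIP and 59.4 CPM in the 129/MSM primed library, and at 132 CPM (lowest), 169 CPM (median) and 208 CPM (highest) at d16+10p. Every d16+10p library was above both primed libraries, and the log2 fold change was 1.55 ± 0.20 (SE, edgeR adjusted p = 5.2e-06). Atp5g3 rose by 0.69 ± 0.17 on the log2 scale (edgeR adjusted p = 0.0026), from 128 and 204 CPM to 241 to 286 CPM. Atp5g2 was not called: its level was 206 CPM in the Oct4GIP and 96.3 CPM in the 129/MSM primed library and 93.9 to 153 CPM at d16+10p, so the Oct4GIP value lay above the d16+10p range and the 129/MSM value inside it.

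The c-subunit genes also differed in the 300 bases around their starts. The windows below, 250 bases before to 50 bases after the gene start from RefSeq (GRCm38.p6, 5′ to 3′ on the gene's strand), are shown because these genes encode 1 mature protein while their levels moved apart. Capitals mark exact matches, on either strand, to 4 motifs: CGCATGCG (bound by NRF1), TCAAGGTCA (bound by estrogen-related receptors), CCGGAAG (bound by ETS factors including GABP) and AAGATGGCG (bound by YY1).
Atp5g1 chr11:96075582-96075881, minus strand: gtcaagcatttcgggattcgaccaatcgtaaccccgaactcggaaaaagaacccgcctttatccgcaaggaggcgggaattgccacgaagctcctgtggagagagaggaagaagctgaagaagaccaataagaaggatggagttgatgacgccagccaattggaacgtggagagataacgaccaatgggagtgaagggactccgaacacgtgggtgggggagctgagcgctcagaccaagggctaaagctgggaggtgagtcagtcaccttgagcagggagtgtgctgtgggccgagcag
Atp5g2 chr15:102670998-102671297, minus strand: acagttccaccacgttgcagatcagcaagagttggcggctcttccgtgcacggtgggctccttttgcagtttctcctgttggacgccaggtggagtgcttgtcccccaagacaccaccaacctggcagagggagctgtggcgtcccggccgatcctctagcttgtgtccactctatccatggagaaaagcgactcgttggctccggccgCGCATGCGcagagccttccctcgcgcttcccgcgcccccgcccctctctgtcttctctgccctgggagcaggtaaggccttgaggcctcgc
Atp5g3 chr2:73911277-73911576, minus strand: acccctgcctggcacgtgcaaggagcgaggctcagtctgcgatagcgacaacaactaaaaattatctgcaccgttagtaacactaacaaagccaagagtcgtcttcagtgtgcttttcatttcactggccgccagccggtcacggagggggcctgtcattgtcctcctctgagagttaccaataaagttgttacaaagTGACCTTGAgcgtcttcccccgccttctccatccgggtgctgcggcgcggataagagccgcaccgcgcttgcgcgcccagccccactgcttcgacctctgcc
The Atp5g1 window held none of the 4 motifs, the Atp5g2 window held CGCATGCG and the Atp5g3 window held the reverse complement of TCAAGGTCA. These are descriptions of letters and not of binding.

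Several subunits of the catalytic head of the ATP synthase were also called. Atp5b, the beta subunit where ATP is made, rose by 0.59 ± 0.13 (log2, SE, edgeR adjusted p = 0.0014), from 1508 CPM in Oct4GIP and 1257 CPM in 129/MSM primed cells to between 1898 and 2186 CPM. Atp5a1, the alpha subunit, rose in both of its rows, by 0.71 and 0.65, Atp5c1, the gamma subunit, by 0.42 and Atp5o, the subunit that ties the head to the stalk, by 0.47 in its larger row. The 2 rows of Atp5a1 held near-equal counts, as did those of Uqcrc1 and of Ndufs3, so they are not separate measurements. Atp5e, the small epsilon subunit, fell: 80.6 and 72.0 CPM in the Oct4GIP and 129/MSM primed libraries against 39.4, 55.4 and 63.3 CPM (lowest, median, highest) at d16+10p, without overlap, log2 fold change -0.54 ± 0.18 (edgeR adjusted p = 0.022). Atp5e lost its call without either primed library (edgeR adjusted p = 0.17 without Oct4GIP and 0.056 without 129/MSM).

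In complex IV, Cox5a, a subunit on the matrix side that binds a thyroid hormone metabolite, rose most among the well-counted genes. Its level was 88.3 CPM in the Oct4GIP and 94.4 CPM in the 129/MSM primed library against 155, 210 and 245 CPM (lowest, median, highest) at d16+10p. The groups were separate, with a log2 fold change of 1.16 ± 0.19 (SE, edgeR adjusted p = 6.1e-05). Cox6a1, the widely expressed form of a subunit whose other form is found in striated muscle, rose from 89.0 and 97.3 CPM to 141, 163 and 190 CPM, a log2 fold change of 0.82 ± 0.19 (edgeR adjusted p = 0.0017). Cox6c rose by 0.96 ± 0.25 (edgeR adjusted p = 0.0047), from 73.2 and 70.4 CPM to 110 to 200 CPM, although reads of the near-identical copy Cox6c2 could be split with it. Cox7b, Cox5b, Cox6b1 and Cox7a2, all structural subunits, rose by 0.67, 0.61, 0.55 and 0.54 on the log2 scale.

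The complex IV subunits that fell were alternative forms. Cox6b2, known as the form found in testis, stood at 169 CPM in the Oct4GIP and 77.7 CPM in the 129/MSM primed library and at 21.1, 38.8 and 51.5 CPM at d16+10p, below both. Its log2 fold change was -1.69 ± 0.38 (SE, edgeR adjusted p = 0.0015), and -1.03 (edgeR adjusted p = 0.14) without the Oct4GIP primed library. Ndufa4l2 (chr10:127514967-127517154, GRCm38), a hypoxia-induced relative of the complex IV subunit Ndufa4, was at 65.9 CPM in the Oct4GIP primed library, 4.11 CPM in the 129/MSM primed library and 0 to 6.47 CPM at d16+10p. The 129/MSM primed value lay inside the d16+10p range, and the log2 fold change of -3.58 ± 1.05 (edgeR adjusted p = 0.011) was -0.51 (edgeR adjusted p = 0.86) without the Oct4GIP primed library. DESeq2 and limma voom did not call Ndufa4l2 (adjusted p = 0.053 and 0.13). Cox7b2, a form of Cox7b, had 0 counts in both primed libraries and 0.408, 2.35 and 4.76 CPM at d16+10p. It was at least 2.05-fold higher when the primed level was set at 3 counts in the shallower primed library, and its call (edgeR adjusted p = 0.0076) was lost without either primed library (edgeR adjusted p = 0.052 without Oct4GIP and 0.055 without 129/MSM).

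Complex III was the complex with the largest median shift. All 9 rows had a positive log2 fold change over both lines, with a median of 0.49. Within a line the log2 difference was -0.30 for Uqcrc2 in Oct4GIP, and -0.14 for Uqcrfs1 and -0.06 for Uqcrh in 129/MSM. The other rows were above 0 in both lines, Uqcr11 by only 0.0001 in 129/MSM. Uqcr10, a small accessory subunit, stood at 59.97 and 54.0 CPM in the Oct4GIP and 129/MSM primed libraries and at 85.3, 108 and 116 CPM (lowest, median, highest) at d16+10p, above both. Its log2 fold change was 0.87 ± 0.20 (SE, edgeR adjusted p = 0.0016), and the call was lost in Oct4GIP alone (adjusted p = 0.051) and after thinning to equal depth (adjusted p = 0.060). Uqcrc1, a core subunit facing the matrix, rose by 0.77 and 0.72 in its 2 rows and Uqcrb, the ubiquinone-binding protein, by 0.40.

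Complexes I and II had the smallest median log2 fold changes over both lines, 0.08 and 0.16. In complex I, Ndufs1 rose by 0.69 ± 0.15, Ndufs8 by 0.59 ± 0.21 and Ndufv1 by 0.44 ± 0.16 (log2, SE, edgeR adjusted p = 0.0012, 0.035 and 0.031), and these are core subunits that carry the NADH site or iron-sulfur clusters. Ndufab1, which is also the mitochondrial acyl carrier protein, fell by 0.45 ± 0.17 (edgeR adjusted p = 0.042), from 120 and 72.0 CPM in the Oct4GIP and 129/MSM primed libraries to 51.2, 71.0 and 77.3 CPM at d16+10p. The 129/MSM primed value lay inside the d16+10p range, and without the Oct4GIP primed library the log2 fold change was -0.04. The Ndufab1 call was also lost without each of 4 d16+10p libraries, AICAR, AICAR+LIF and A769662 of Oct4GIP and AICAR of 129/MSM (edgeR adjusted p = 0.056 to 0.064). In complex II only Sdha, the catalytic flavoprotein, was called, with a rise of 0.45 ± 0.14 (edgeR adjusted p = 0.016) from 227 and 199 CPM to 251, 286 and 335 CPM. Sdhb, the iron-sulfur subunit, was at 95.6 and 72.0 CPM in the primed libraries and 79.2 to 109 CPM at d16+10p, and Sdhd, a membrane anchor, was at 96.7 to 118 CPM and 106 to 132 CPM. Both overlapped between the groups, with log2 fold changes of 0.16 ± 0.19 and 0.17 ± 0.16 (SE, edgeR adjusted p = 0.56 and 0.45).

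The response was then compared between the lines, as the d16+10p minus primed difference in 129/MSM minus that in Oct4GIP. Of 86 rows tested, 3 had a larger difference in 129/MSM and 0 a smaller one (edgeR adjusted p under 0.05), where 3.07% and 4.41% of 14506 genes were called in these directions. At an unadjusted p under 0.05 the counts were 10 and 6, and DESeq2 called 1 row in all. The share called, 3.49%, was near the background. The 3 rows were Ndufb11, an accessory subunit of the membrane arm, Sdhc, a membrane anchor of complex II, and Uqcrc2, a core subunit of complex III. Ndufb11 went from 85.3 CPM to 51.2 to 64.6 CPM in Oct4GIP and from 43.9 CPM to 64.5 and 61.1 CPM in 129/MSM. Sdhc went from 110 CPM to 75.5 to 94.2 CPM in Oct4GIP and from 71.1 CPM to 97.2 and 111 CPM in 129/MSM. Uqcrc2 went from 226 CPM to 173 to 200 CPM in Oct4GIP and from 116 CPM to 169 and 186 CPM in 129/MSM. In all 3 genes the level was below primed in Oct4GIP and above it in 129/MSM. The primed libraries of the lines also differed in feeders and medium, which cannot be told apart from line here. The same holds for sex chromosomes, XX in Oct4GIP and XY in 129/MSM. Ndufb11 lies on the X chromosome, and the part of sex was not tested. Each line had 1 primed library, so line and that single library cannot be told apart, and leaving out the AICAR+LIF or A769662 Oct4GIP library, or either 129/MSM d16+10p library, left 0 calls, as did thinning to equal depth.

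Primed cells were next compared with the 8 Oct4GIP cultures at d8 and d16, before the move to 2iL. Here 15 of 90 subunit rows were lower in the cultures and 1 was higher by edgeR, where 19.4% of all genes were called lower and 18.1% higher. The share of subunits called lower, 16.7%, was near that of all genes, and the share called higher, 1.11%, was below it. The median log2 fold change was -0.13 over the subunits and 0.04 over all genes. Without the Oct4GIP primed library only 3 rows were called, and with the compared groups alone in the fit 8 rows were called. The 10 fibroblast markers moved with this comparison (8 of 10 higher in the cultures), and their part in the result was not tested.

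The 8 complex I subunits called lower were Ndufv3, Ndufs6, Ndufab1, Ndufa7, Ndufb4, Ndufv2, Ndufb6 and Ndufa9. Ndufs6, an accessory subunit that binds zinc, was at 54.8 and 41.1 CPM in the Oct4GIP and 129/MSM primed libraries, at 26.1, 21.98, 19.9 and 23.7 CPM in Basal, 2iL, AICAR and AICAR+LIF at d8, and at 37.2, 30.1, 31.8 and 25.6 CPM in the same order at d16. All 8 cultures were below both primed libraries, with a log2 fold change of -0.83 ± 0.17 (SE, edgeR adjusted p = 0.00077), which was -0.61 (edgeR adjusted p = 0.0501) without the Oct4GIP primed library. Ndufs6 and Ndufb4 each have a near-identical copy in the table (Ndufs6b and Ndufb4c), so their counts are uncertain. Ndufab1 was at 48.1 to 65.2 CPM in the cultures, below both primed values given above (log2 fold change -0.82 ± 0.17, edgeR adjusted p = 0.00071, and -0.41 with an edgeR adjusted p of 0.14 without the Oct4GIP primed library). Ndufv3, a small accessory subunit of the NADH-oxidizing module, was called lower (-0.88 ± 0.23, edgeR adjusted p = 0.0059) although Basal d16 and 2iL d16, at 72.6 and 87.1 CPM, overlapped with the primed libraries at 68.1 and 78.6 CPM. Its call was lost without the 129/MSM primed library (edgeR adjusted p = 0.052).

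In complex V, Atp5b was the only row called, at 768 to 867 CPM at d8, 773 to 1041 CPM at d16 and 1257 and 1508 CPM in primed cells, a log2 fold change of -0.71 ± 0.12 (SE, edgeR adjusted p = 0.00013). In complex IV, Cox7b and Cox7c were called lower along with Cox6b2, Cox7a1 and Cox6a2. Cox6b2 was at 21.7, 44.4, 49.2 and 59.3 CPM at d8 and 67.2, 21.7, 17.5 and 32.4 CPM at d16 in Basal, 2iL, AICAR and AICAR+LIF, below both primed libraries. Its log2 fold change was -1.68 ± 0.37 (edgeR adjusted p = 0.0016) and -1.02 (edgeR adjusted p = 0.145) without the Oct4GIP primed library. Cox6a2, the striated muscle form, had 15 counts in the Oct4GIP primed library (5.52 CPM), 1 count in the 129/MSM primed library (0.316 CPM) and 4 counts over the 8 cultures, and DESeq2 and limma voom did not call it (adjusted p = 0.16 and 0.075). Cox7a1, the form of striated muscle and brown fat, was at 6.99 and 10.4 CPM in primed cells, 0 to 1.98 CPM at d8, 11.5 and 11.6 CPM in Basal and 2iL d16, and 1.56 and 0.376 CPM in AICAR and AICAR+LIF d16. The d16 libraries thus overlapped with the primed ones for Cox7a1, whose call (log2 fold change -1.94 ± 0.70, edgeR adjusted p = 0.033) was lost without either primed library or without 2iL d8 (edgeR adjusted p = 0.069, 0.17 and 0.063). In complex III, Uqcrb was called lower (-0.60 ± 0.14, edgeR adjusted p = 0.0029). Uqcrh, the hinge protein of complex III, was the row called higher, at 107 to 119 CPM at d8 and 118 to 183 CPM at d16 against 72.8 and 98.2 CPM in primed cells (0.64 ± 0.18, edgeR adjusted p = 0.0094, and 0.44 with an edgeR adjusted p of 0.185 without the Oct4GIP primed library).

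The comparison with the highest share of subunit rows called was that between the 2 culture times. Of 85 rows tested, 40 (39 symbols) were higher at d16 than at d8 and 0 were lower by edgeR with AICAR as a term in the model, where 17.7% of 14026 genes were called higher and 13.8% lower. The share of subunit rows called higher was 47.1%. At an unadjusted p under 0.05, 51 rows were higher and 1 was lower, and DESeq2 called 43 higher and 0 lower and limma voom 42 higher and 0 lower. The median log2 fold change was 0.51 over the 85 rows against -0.01 over all genes, and 80 of the 85 were above 0. By complex, 16 of 38 rows were called higher in complex I, 3 of 4 in complex II, 5 of 9 in complex III, 6 of 15 in complex IV and 10 of 19 in complex V, with medians of 0.52, 0.59, 0.51, 0.49 and 0.56. The 5 complex IV and 1 complex I rows that failed the count filter of these 8 libraries were Cox4i2, Cox6a2, Cox7a1, Cox7b2, Cox8b and Ndufs6b. The count depended on single libraries: it was 12 without 2iL d8, 19 without Basal d8 and 24 without AICAR d16. The number of all genes called without these libraries is not given here. Without TMM scaling the calls were 27 higher and 1 lower.

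Uqcr11, a small complex III subunit, was at 32.6, 25.7, 34.1 and 27.7 CPM in Basal, 2iL, AICAR and AICAR+LIF at d8 and at 83.4, 96.3, 69.3 and 50.1 CPM in the same order at d16. Every d16 library was above every d8 library, and the log2 fold change was 1.32 ± 0.23 (SE, edgeR adjusted p = 0.0051). Uqcr10 behaved alike, from 21.7 to 34.1 CPM at d8 to 44.0 to 75.8 CPM at d16 (1.12 ± 0.21, edgeR adjusted p = 0.0071). In complex I, Ndufv3 rose from 32.9, 27.4, 22.7 and 19.8 CPM to 72.6, 87.1, 42.1 and 36.1 CPM (1.19 ± 0.20, edgeR adjusted p = 0.0046), without overlap. Ndufa3, an accessory subunit of the membrane arm, rose by 0.97 ± 0.22 (edgeR adjusted p = 0.013), and Ndufc2, Ndufa5 and Ndufa1 by 0.93, 0.83 and 0.83. In complex IV, Cox6c rose by 1.12 ± 0.19 (edgeR adjusted p = 0.0048), Cox6a1 by 0.98 and Cox8a by 0.87. Cox4i1, the complex IV member with the most counts, rose by 0.56 ± 0.17 (edgeR adjusted p = 0.036), from 142 to 234 CPM at d8 to 199 to 353 CPM at d16, with overlap. In complex II, Sdhc, Sdhd and Sdha rose by 0.79, 0.68 and 0.49, and Sdhb had a log2 fold change of 0.32 ± 0.19 (edgeR adjusted p = 0.21). In complex V the rises were between 0.56 for Atp5md and 1.16 ± 0.29 for the smaller row of Atp5o, which had 3.95 to 8.71 CPM at d8 and 11.6 to 20.6 CPM at d16. The call of that Atp5o row was lost without Basal d8, AICAR d8 or Basal d16 (edgeR adjusted p = 0.056, 0.054 and 0.052). Ndufa4l2 rose by 3.52 ± 0.86 (edgeR adjusted p = 0.017), but only Basal d16 and 2iL d16, at 101 and 79.4 CPM, lay above the d8 range of 1.98 to 5.07 CPM, and the call was lost without Basal d8 or 2iL d8 (edgeR adjusted p = 0.11 and 0.12).

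The windows of Cox6a1 and Uqcr11 are shown because both genes rose at d16 and both windows hold CGCATGCG and CCGGAAG or its reverse complement, again in capitals.
Cox6a1 chr5:115348909-115349208, minus strand: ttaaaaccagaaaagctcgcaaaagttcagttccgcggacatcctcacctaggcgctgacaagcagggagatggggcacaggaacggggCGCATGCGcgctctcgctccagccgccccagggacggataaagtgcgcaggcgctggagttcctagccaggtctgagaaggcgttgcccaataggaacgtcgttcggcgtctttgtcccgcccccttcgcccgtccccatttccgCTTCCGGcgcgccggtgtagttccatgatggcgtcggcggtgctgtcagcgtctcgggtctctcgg
Uqcr11 chr10:80406772-80407071, minus strand: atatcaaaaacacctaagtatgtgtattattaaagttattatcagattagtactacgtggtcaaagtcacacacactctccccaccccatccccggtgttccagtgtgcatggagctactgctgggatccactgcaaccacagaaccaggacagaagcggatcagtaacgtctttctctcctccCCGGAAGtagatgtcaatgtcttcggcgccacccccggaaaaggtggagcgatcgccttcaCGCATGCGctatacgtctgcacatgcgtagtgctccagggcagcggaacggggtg
A window was found for 69 of the 87 symbols. CGCATGCG occurred in 9 of the 69 (13.04%), against 2.07% of all 27025 symbols with a window, CCGGAAG in 17 (24.6%) against 9.93%, AAGATGGCG in 7 (10.1%) against 1.64%, and TCAAGGTCA in 2 (2.90%), Atp5g3 and Sdhd, against 0.4662%. Among symbols with a window, CCGGAAG occurred in 11 of the 31 called higher at d16 against d8 and in 6 of the 35 tested and not called higher, and CGCATGCG in 5 of 31 and 4 of 35. For d16+10p against primed the counts were 3 of 18 and 14 of 51 for CCGGAAG, and 2 of 18 and 7 of 51 for CGCATGCG. These counts were not tested.

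The fibroblast markers moved with the rise from d8 to d16: 8 of 10 were called higher, and their sum went from 2925 to 3399 CPM at d8 to 5626 CPM in Basal, 49857 CPM in 2iL, 17147 CPM in AICAR and 19319 CPM in AICAR+LIF at d16. The subunit sums of these d16 libraries were 8545, 9599, 9255 and 7386 CPM in the same order. The 4 smooth muscle markers summed to 179 to 1146 CPM at d8 and 202 to 1224 CPM at d16 with 0 of 4 called at this comparison by edgeR. The part of these cells in the subunit result was not tested. Depth also differed, with totals of 438771 to 2860985 counts at d8 against 2686012 to 5290163 at d16, and 20 rows were called after every library was thinned to 438771 counts, a check added after the data were seen.

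Passaging in 2iL was examined by comparing d16+2-3p (n = 4) with d16 (n = 4). The passaged cells all came from AICAR or AICAR+LIF cultures, whereas the d16 group also held Basal and 2iL cultures. Passaging and the earlier medium are therefore mixed in this contrast. By edgeR, 22 of 90 subunit rows (20 symbols) were higher and 14 (13 symbols) lower, where 33.2% of all genes were called higher and 37.9% lower, so the subunit shares of 24.4% and 15.6% were below the background. The median was 0.12 over the subunits and -0.15 over all genes, a shift of the whole table to which the single values are relative. With DESeq2 the split was 20 higher and 19 lower and with a minimum of 10 counts in every library it was 13 higher and 26 lower, so the balance of directions depended on the method and filter. Without AICAR+LIF d16+3p it was 16 higher and 20 lower. The fibroblast markers were 10 of 10 lower, their sum falling to 16.2 to 98.9 CPM, and the smooth muscle markers were 4 of 4 lower, and their part in the result was not tested.

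The rows that rose lay in the head and ring of complex V and in parts of complexes I, III and IV. Cox5a was at 72.1, 69.4, 83.3 and 65.5 CPM at d16 in Basal, 2iL, AICAR and AICAR+LIF, and at 174 and 156 CPM after 2 passages and 242 and 240 CPM after 3 passages in AICAR and AICAR+LIF cells. All 4 passaged libraries were above all d16 libraries, with a log2 fold change of 1.48 ± 0.16 (SE, edgeR adjusted p = 6.5e-08). Atp5g1 was at 73.0, 83.8, 93.0 and 68.5 CPM at d16 and at 170, 180, 187 and 221 CPM after passaging (1.25 ± 0.16, edgeR adjusted p = 9.4e-07). Atp5b rose from 773 to 1041 CPM to 1847 to 2206 CPM (1.19 ± 0.11, edgeR adjusted p = 1.5e-08), and Atp5a1 rose by 1.03 and 0.97 in its 2 rows. Cox7b, Uqcrc1 (larger of its 2 rows), Cox7c and Ndufs6 rose by 0.91, 0.89, 0.78 and 0.77. Cox5a, Atp5g1, Atp5b and Cox7b kept their call and direction in all 20 alternatives run for this comparison.

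The 14 rows that fell were 9 of complex I, 1 of complex II, 1 of complex III and 3 alternative forms of complex IV. Ndufa8 was at 68.7, 81.0, 56.8 and 56.5 CPM in Basal, 2iL, AICAR and AICAR+LIF at d16 and at 37.6, 37.7, 38.1 and 46.7 CPM after passaging, without overlap (-0.71 ± 0.18, edgeR adjusted p = 0.0014). Ndufa1 and Ndufa3 fell by 0.70 and 0.68 (Ndufa1 by 0.08, edgeR adjusted p = 0.84, after thinning to equal depth), Ndufa12 by 0.61 and Ndufa13 by 0.55, and in complex II Sdhc fell by 0.57. Ndufa4l2 was at 101 and 79.4 CPM in Basal and 2iL d16, at 0.624 and 3.76 CPM in AICAR and AICAR+LIF d16, and had 2 counts in all over the passaged libraries. The ratio of the pooled levels was 317 (95% interval from counting alone, 87.6 to 2627), but the d16 counts were 537 and 198 in Basal and 2iL and only 2 and 10 in AICAR and AICAR+LIF, the media from which the passaged cells came. AICAR d16 lay inside the passaged range of 0 to 0.761 CPM. Cox4i2, the form of Cox4 induced by low oxygen, had 65 counts over the d16 libraries (1.13 to 8.30 CPM) and 2 after passaging, a ratio of 27.6 (7.35 to 233). Cox8b, the form of Cox8 in striated muscle and brown fat, had 28, 39, 6 and 2 counts (5.28, 15.6, 1.87 and 0.753 CPM) in Basal, 2iL, AICAR and AICAR+LIF d16 and 0 counts in the 4 passaged libraries, at least 4.81-fold lower, and DESeq2 did not call it (adjusted p = 0.16). Beside Cox8b, the 14 striated muscle markers summed to 14.3 CPM in Basal d16, 48.9 CPM in 2iL d16, 176 CPM in AICAR d16 and 67.0 CPM in AICAR+LIF d16, and their part in the result was not tested. Cox7b2 had 0 counts in the d8 and d16 libraries and 64 counts over the 4 passaged libraries (4.14, 7.99, 4.72 and 5.62 CPM), at least 4.58-fold higher.

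**Figure D4:**
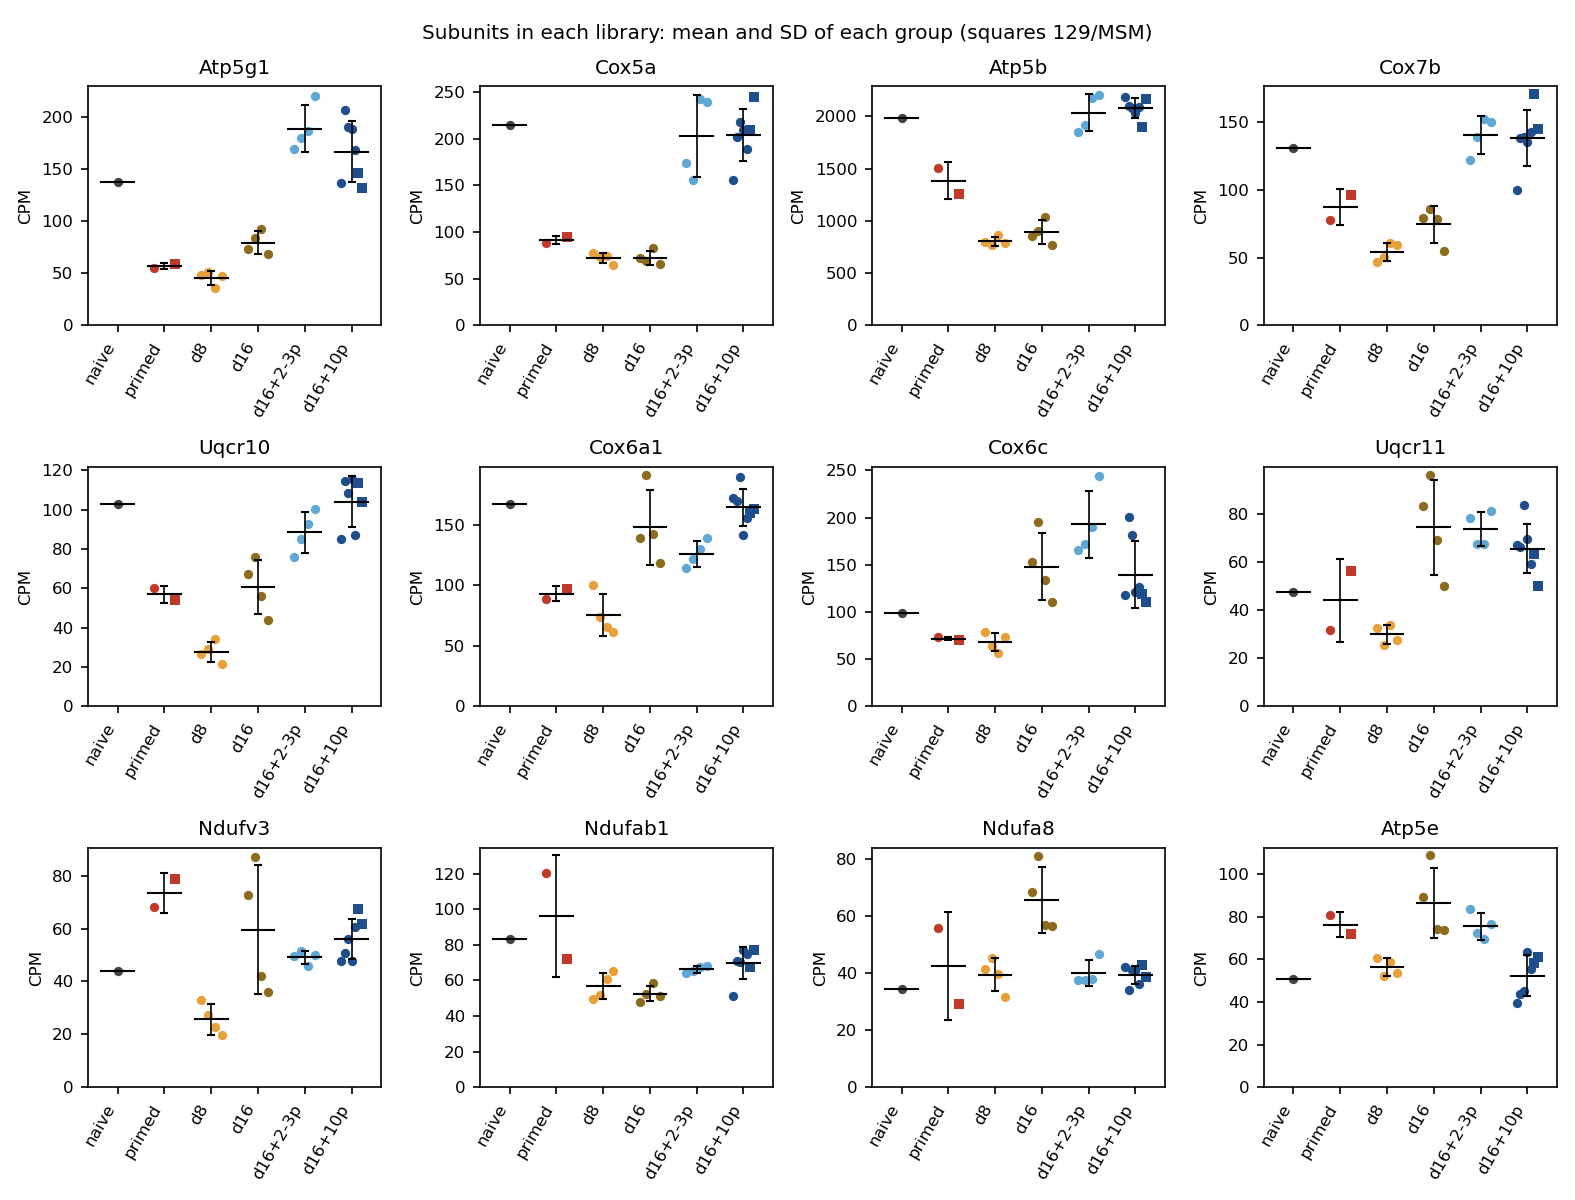
CPM (vertical axes, from 0) of 12 subunits in each library by group. Circles are Oct4GIP or Rex1-GFP libraries, squares 129/MSM libraries, bars group means and whiskers the SD where a group has more than 1 library. All passaged libraries lie above all primed, d8 and d16 libraries for Atp5g1 and Cox5a, all d16 libraries lie above all d8 libraries for Uqcr10 and Uqcr11, and the mean of Ndufa8 and of Atp5e is highest at d16.

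Between d16+2-3p and d16+10p the subunits differed little. Of 90 rows 0 were higher at d16+10p and 2 were lower by edgeR, where 4.75% of all genes were called higher and 4.61% lower. At an unadjusted p under 0.05 the counts were 5 and 6, and DESeq2 and limma voom called 0 higher and 3 lower each. The log2 fold changes of the 90 rows ran from -1.33 to 3.73 with a median of 0.01, and those of complex I lay between -0.28 and 0.42. Atp5e was at 83.8, 72.3, 69.3 and 76.6 CPM at d16+2-3p and at 39.4 to 63.3 CPM at d16+10p, without overlap (-0.53 ± 0.14, edgeR adjusted p = 0.022). Its call was lost without AICAR d16+2p, AICAR+LIF d16+2p or AICAR+LIF d16+3p (edgeR adjusted p = 0.099, 0.055 and 0.063). Cox7c was at 136, 142, 148 and 150 CPM against 92.7, 107 and 128 CPM (-0.42 ± 0.13, edgeR adjusted p = 0.044), also without overlap, and lost its call when any of 10 of the 11 libraries was left out (edgeR adjusted p = 0.064 to 0.11). With the compared groups alone in the fit, 5 rows were higher and 4 lower. Ndufa4l2 was not called, although it had 52 counts at d16+10p and 2 at d16+2-3p. The ratio of its pooled levels was 15.9 (95% interval from counting alone, 4.17 to 134). A call that was missed does not show that levels were equal.

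Media with AICAR (AICAR and AICAR+LIF) were compared with media without it (Basal and 2iL) in the 8 cultures, with day as a term. The 2 kinase inhibitors were present only in 2iL, on the side without AICAR. The contrast therefore mixes AICAR with the absence of these inhibitors and is not that of AICAR alone. By edgeR 0 of 85 rows were higher and 2 lower with AICAR, where 3.55% and 5.99% of all genes were called in these directions. At an unadjusted p under 0.05 the counts were 0 and 3, and DESeq2 and limma voom each called 0 higher and 2 lower. Ndufa4l2 had 5.07 and 4.56 CPM in Basal and 2iL at d8 against 3.79 and 1.98 CPM in AICAR and AICAR+LIF, and at d16 101 and 79.4 CPM against 0.624 and 3.76 CPM. The d8 values with AICAR rest on 4 counts and 1 count, too few to order the d8 libraries at this depth. At d16 both libraries with AICAR were below both without it, and the log2 fold change over both days was -4.44 ± 0.90 (edgeR adjusted p = 0.024). Ndufv3 had 32.9 and 27.4 CPM against 22.7 and 19.8 CPM at d8, and 72.6 and 87.1 CPM against 42.1 and 36.1 CPM at d16 (-0.78 ± 0.20, edgeR adjusted p = 0.045). Leaving out any of the 8 libraries ended the Ndufv3 call (edgeR adjusted p = 0.052 to 0.14), and leaving out Basal d8, Basal d16, AICAR d16 or AICAR+LIF d16 ended that of Ndufa4l2 (edgeR adjusted p = 0.053 to 0.099). Of the markers tested here, 1 of 2 striated muscle, 1 of 4 smooth muscle and 3 of 10 fibroblast markers were called higher with AICAR by edgeR. The median log2 fold change of the fibroblast markers was nevertheless -0.22. Of the general pluripotency markers 2 of 3 were called higher, of the primed markers 2 of 6 and of the naive markers 0 of 2. None of these markers was called lower, and their part in the result was not tested. A difference between d16 and d8 in the contrast of media with and without AICAR was called for 0 of 87 rows by edgeR. Of 15473 genes, 0.0452% were called higher and 0.0905% lower. At an unadjusted p under 0.05 it was 1 higher and 6 lower, DESeq2 called 0 higher and 1 lower and limma voom none.

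Several subunits come in alternative forms, and their make-up changed along the conversion. Shares were computed as CPM per exon length within each set of forms, and they are descriptions with no test. The length is that of all annotated exons of a gene together (4912 bases for Atp5g1, 1675 for Atp5g2 and 2181 for Atp5g3). It is not the length of the transcripts present. A share depends on these lengths and does not give the amount of 1 form relative to another. On this scale Atp5g1 gave 5.83% and 7.41% of the c-subunit set in the Oct4GIP and 129/MSM primed libraries, and 4.97% to 7.70% at d8. It gave 8.68% to 9.14% at d16, 15.8% to 16.8% at d16+2-3p, 12.1% to 17.0% at d16+10p and 14.1% in the naive library. The order of its groups had passaged and naive libraries above all cultures and both primed libraries, with primed and d8 overlapping. Atp5g3 and Atp5g2 made up the rest of the set by definition, and the share of Atp5g2 was 63.8% in Oct4GIP primed cells but 35.3% in 129/MSM primed cells.

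Cox6b2 gave 49.9% and 31.6% of the Cox6b pair in the Oct4GIP and 129/MSM primed libraries, 6.76% to 26.2% over the d8 and d16 libraries, 14.1% to 21.4% at d16+2-3p, 7.70% to 17.6% at d16+10p and 15.0% in the naive library. Both primed libraries were above all others. Cox7a1 gave 16.6% and 15.6% of the Cox7a pair in primed cells, 0% to 4.67% at d8, 0.849% to 18.8% at d16, 6.02% to 13.4% at d16+2-3p, 13.9% to 22.3% at d16+10p and 24.1% in the naive library. Its share at d8 was below that of every primed and passaged library, but rests on 3, 0, 1 and 1 counts in Basal, 2iL, AICAR and AICAR+LIF. That is too few to order AICAR+LIF d8, where 3 counts were worth 5.93 CPM, against the passaged libraries. Ndufa4l2 gave 46.5% and 3.95% of the Ndufa4 pair in the Oct4GIP and 129/MSM primed libraries, and 2.41% to 7.89% at d8. At d16 it gave 56.1% and 40.9% in Basal and 2iL but 0.638% and 4.21% in AICAR and AICAR+LIF. It gave 0% to 0.724% at d16+2-3p, 0% to 6.46% at d16+10p and 1.11% in the naive library. Cox7b2 gave 6.50% to 11.4% of the Cox7b pair at d16+2-3p, 0.534% to 6.97% at d16+10p and 1.05% in the naive library, and it was at 0 counts in all primed, d8 and d16 libraries.

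**Figure D5:**
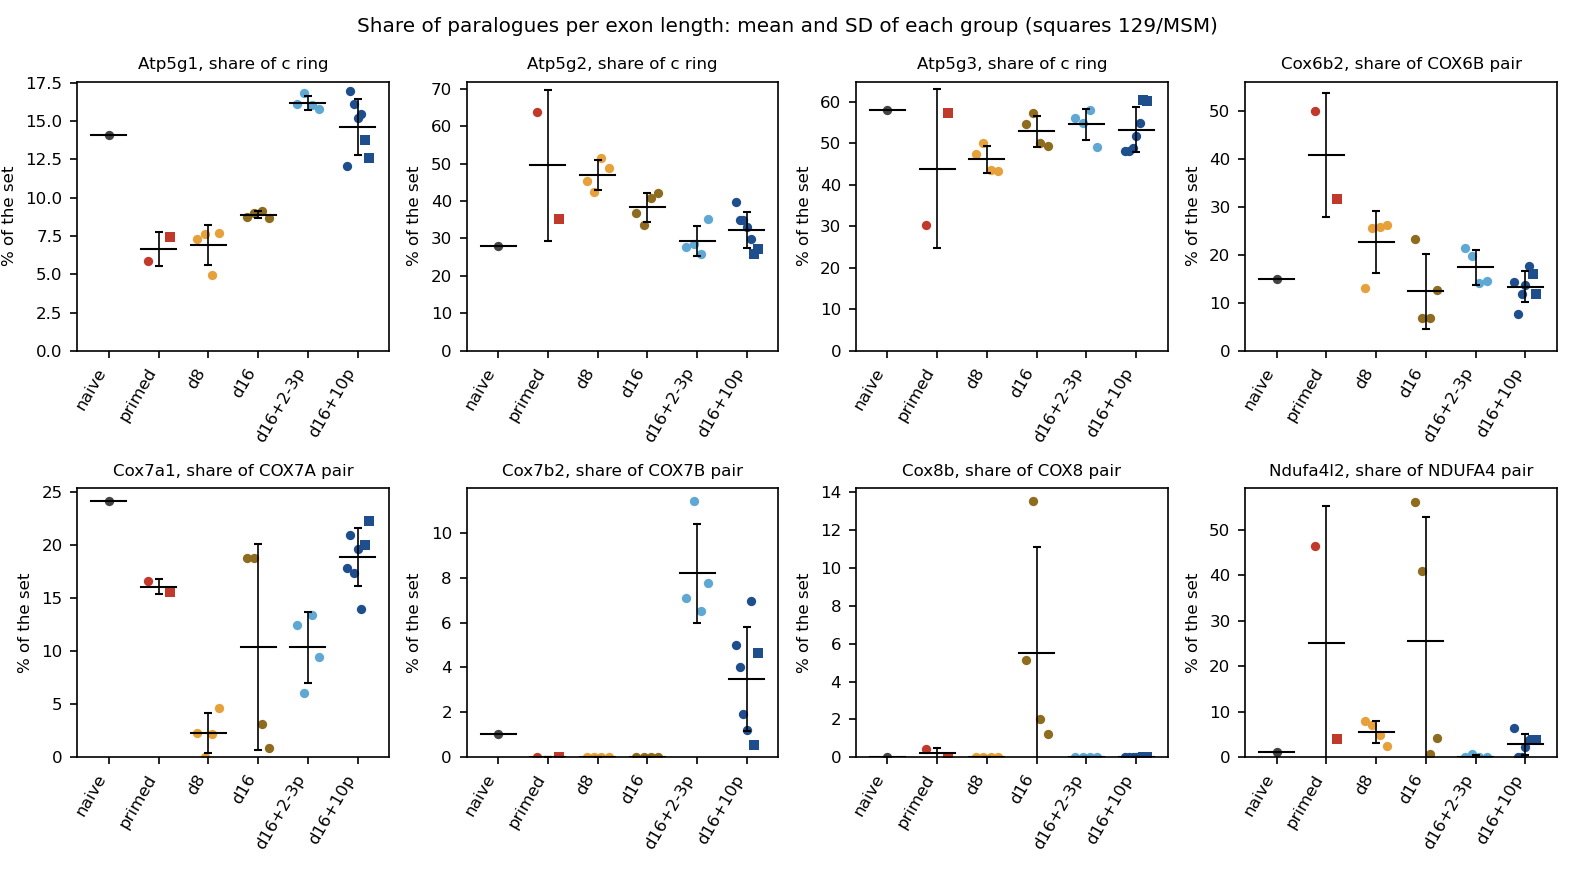
Share in percent (vertical axes, from 0) of a form among the forms of the same subunit, computed from CPM per exon length, in each library by group. Circles are Oct4GIP or Rex1-GFP libraries, squares 129/MSM libraries, bars group means and whiskers the SD. Atp5g1 lies at 12.1% to 17.0% in the passaged libraries and at or below 9.14% in all primed, d8 and d16 libraries, while Cox6b2 is highest in the primed libraries.

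The naive library lay inside the d16+10p range for 58 of the 90 rows, above all 7 libraries for 16 and below all 7 for 16. The same count was not made over all genes, so these numbers cannot be called particular to the subunits. Among those above were Atp5c1 (358 CPM against 239 to 303 CPM) and Ndufv2, a core iron-sulfur subunit (137 CPM against 101 to 121 CPM). Among those below were both rows of Atp5a1 (502 CPM against 570 to 697 CPM in the larger row), Ndufb11 (49.0 CPM against 51.2 to 64.6 CPM) and Cox6c (98.7 CPM against 110 to 200 CPM). Cox5a, Atp5g1 and Uqcr10, at 215, 137 and 103 CPM, were inside the range. A group of 1 naive library allows no test.

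Other genes of the pathway were read from lists of assembly factors, electron carriers and mitochondrially encoded subunits. At d16+10p against primed, 3 of 48 assembly factors were higher and 4 lower, 1 of 6 carriers was higher and 2 of 13 mitochondrially encoded subunits were higher. Over all genes 16.7% were called higher and 19.9% lower there. The assembly factors are counted as rows, and Cox20 has more than 1. The carrier was Etfb, a subunit of the electron transfer flavoprotein, with a log2 fold change of 0.82 ± 0.21 (edgeR adjusted p = 0.0043). At d16 against d8, 1 assembly factor was higher and 2 lower of 46, 0 of 6 carriers were called and 9 of 13 mitochondrially encoded subunits were higher, with a median log2 fold change of 0.66. The mitochondrially encoded subunits summed to 17620 to 21396 CPM at d8 and 23484 to 34764 CPM at d16. In that comparison 17.7% of all genes were called higher and 13.8% lower. At d16+2-3p against d16, 7 of 13 mitochondrially encoded subunits were lower and none was called higher by edgeR. Of 48 assembly factors 16 were higher and 9 lower, beside 33.2% of all genes called higher and 37.9% lower. Cyc1, the cytochrome c1 of complex III that lies outside the naming rule, rose by 0.84 ± 0.20 (edgeR adjusted p = 0.00079) in that comparison, and Atpaf1, which assembles the head of the ATP synthase, by 1.41. The comparisons share libraries (the primed, d16, d16+2-3p and d16+10p groups each enter more than 1), so agreement between them is not independent.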

How the data were processed

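Gene-level counts of 22 mouse libraries were analysed. Per the labels and the study's methods, the authors made TruSeq stranded mRNA libraries, aligned single reads with Bowtie2 2.2.5 to Ensembl GRCm38 cDNA and ncRNA, kept alignments with a mapping quality of at least 1 and deposited raw counts per gene. Reads shared by near-identical genes could therefore be split or lost. The transcript table and the summary of detected genes were not used here.

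Genes were kept by edgeR's filterByExpr and scaled by TMM. Groups were compared with edgeR's quasi-likelihood test (edgeR 4.0.16, R 4.3.3), with Benjamini-Hochberg adjustment over all genes tested and a threshold of 0.05. The comparisons with primed cells and between passages were fitted on all 22 libraries, and d16 against d8 and AICAR against no AICAR on the 8 cultures, as was their interaction; the line interaction was fitted on the 9 primed and d16+10p libraries. Alternatives were DESeq2 1.42.0, limma voom (limma 3.58.1), other scalings, filters and covariates, and each library left out in turn. Summing the rows of 1 symbol and thinning to 438771 counts were added after the data were seen. The statistics were tested on simulated data. Gene positions came from GENCODE M21. The members and lists were chosen with earlier results of these data known. Genes named with full values were up to 6 per direction with the largest absolute log2 fold change among the calls of each comparison, the subunits of complex II, the sets of alternative forms and the members with the most and fewest counts of each complex. Other members were named after their values were seen. Values of 1 member are not reported here, although it is in the counts and sums. Intervals and floors cover counting error only.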

Additional observations from a re-analysis of the deposited data

Results flagged for a closer look

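Within groups of 4 to 10 libraries, 186 sets of values were examined for a library far from the rest by Dixon's criterion, and 7 stood apart, where chance gives about 1 in 20. At d16+2-3p, AICAR+LIF d16+3p stood apart in Atp5g2 (168 CPM, others 99.8 to 103 CPM) and Ndufa8 (46.7 CPM, others 37.6 to 38.1 CPM). AICAR d16+3p stood apart in Cox4i1 (409 CPM, others 253 to 275 CPM), and AICAR d16+2p was low in Cox6b1 (125 CPM, others 133 to 134 CPM). AICAR+LIF d16+2p was the only library of its group above 0 in Cox6a2 (0.380 CPM, 1 count) and Ndufa4l2 (0.761 CPM, 2 counts), so those rest on very few reads. At d16+10p, AICAR d16+10p was low in Ndufab1 (51.2 CPM, others 67.8 to 77.3 CPM).

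The interaction of line with the change from primed to d16+10p was called for Ndufb11, Sdhc and Uqcrc2, at 1.09, 1.01 and 0.918 on the log2 scale (129/MSM minus Oct4GIP, edgeR adjusted p = 0.0397, 0.0434 and 0.0395). With 1 primed library a line, line, primed culture and library cannot be told apart, and 0 rows were called after thinning to equal depth.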

How the results depend on the processing

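No named call changed direction under the alternatives run, but the median log2 fold change of the subunits at d16+2-3p against d16 went from 0.12 to -0.09 with at least 10 counts in every library. For d16+10p against primed, 28 subunit rows were called, 17 with all genes kept, 16 after thinning and 18 to 28 with 1 library left out. For the cultures against primed, 16 were called, 8 with the compared groups alone, 9 after thinning and 3 to 19 with 1 library left out. For d16+2-3p against d16, 36 were called, 22 after thinning and 33 to 36 with 1 left out. For d16+10p against d16+2-3p, 2 were called, 9 with the compared groups alone, 1 with all genes kept, with line as a covariate or in Oct4GIP alone, 0 after thinning and 0 to 2 with 1 left out. For d16 against d8, 40 were called, 26 without a covariate, 20 after thinning and 12 to 42 with 1 left out. For AICAR, 2 were called, 5 with all genes kept, 1 without scaling factors, with at least 10 counts in every library or with medium as a covariate, 0 without the 3 smallest libraries, without a covariate or after thinning, and 0 to 1 with 1 left out. For the line interaction, 3 were called, 1 by DESeq2, 0 after thinning and 0 to 2 with 1 left out. For the interaction of AICAR and day, 0 were called, 1 by DESeq2, 2 with all genes kept and 0 with any 1 left out. Thinning removes counts, and the cause of the other shifts was not tested. The number of all genes called under each setting is not given here. A fall in subunit calls can therefore not be told apart from a fall over all genes. Leaving out the 3 smallest libraries was not run for the interaction of AICAR and day, nor leaving out a primed library for the line interaction. No pairing by replicate number was made, since the numbers only name the libraries in accession order. Pairing d8 with d16 by medium gave 29 calls. Depth limits the d8 values most, where 3 counts were worth up to 5.93 CPM.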
